A study of Homo sapiens with 4 samples.

Results

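The enzymes that write and erase methyl groups on histone lysines were followed in PC-3M-luc cells after knockdown of LSD1, one of the erasers. The 52 genes were chosen by name: 22 lysine demethylases and related oxygenases other than LSD1 itself (gene KDM1A), and 30 lysine methyltransferases with the core genes of the PRC2 complex. All 52 were found among 22852 gene symbols in the count tables, and all 52 passed the filter on low counts that left 13252 genes for testing. PC-3M-luc is a luciferase-expressing, metastatic human prostate carcinoma line, so the results describe 1 line. Cells were transfected with control RNAi (2 libraries) or RNAi against LSD1 (2 libraries), and total RNA was taken 72 h later. The labels call the libraries biological replicates. The number and sequences of the RNAi duplexes were not known here, and nothing but the RNAi target separates the groups in the labels.

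Histone lysines can carry 1, 2 or 3 methyl groups, and the position decides which proteins read them. Methylation of H3K4 marks promoters and enhancers, that of H3K36 and H3K79 transcribed gene bodies, that of H3K9 and H3K27 silent chromatin, and that of H4K20 compacted chromatin and replication origins. Most writers carry a SET domain and take the methyl group from S-adenosylmethionine, whereas DOT1L has another fold. LSD1 and KDM1B erase with a flavin cofactor, and the other demethylases carry a JmjC domain that needs iron, oxygen and 2-oxoglutarate.

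Counts assigned to genes were 12041283 to 12832064 per library, and a floor of 3 counts equals 0.234 to 0.249 CPM, the depth-scaled count (on TMM-scaled library sizes) in which levels are given below. KDM1A, the targeted gene, had 2920 and 2892 counts with control RNAi against 218 and 234 with LSD1 RNAi, so that 7.60% of its control level remained (log2 fold change -3.72, SE 0.0973, edgeR adjusted p = 2.84e-24). The keratin genes KRT8, KRT18 and KRT19 had at least 2408 counts in every library, as fits an epithelial line, while KLK3, which encodes prostate-specific antigen, had 0. The leukocyte genes PTPRC and CD3E had 0 counts in every library, and none of 4 erythroid and liver markers passed the filter. Of 9 markers of the epithelial line 5 passed the filter, of which 3 rose (KRT8, EPCAM and the cadherin gene CDH1, the last 2.42-fold) and 0 fell. Of 7 leukocyte markers 3 passed it, of which 1 rose (LYZ) and 2 fell (CD68 and CD79A). CD68 was clearly expressed, at 86.7 and 86.0 CPM in control and at 44.8 and 46.8 CPM in knockdown libraries. Of 7 fibroblast and endothelial markers 4 passed the filter, of which 2 rose (COL1A2 and KDR) and 1 fell (PECAM1). COL1A1 was not called, and KDR went from 20.4 and 28.6 CPM to 58.0 and 52.3 CPM.

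Of the 52 genes, 13 rose, 4 fell and 35 did not pass an adjusted p of 0.05 in edgeR's quasi-likelihood test, adjusted over all genes tested. The share called, 32.7%, lay near the 36.1% of all tested genes that were called (18.2% higher and 17.9% lower). Counts of calls in the smaller groups and lists below are to be read beside these shares. The libraries of the groups did not overlap for 30 of the 52 genes, or 57.7%, against 67.2% of all tested genes. Changes were small, with a median absolute log2 fold change of 0.17 against 0.23 over all tested genes, and 1 gene, KMT5A, changed by at least 2-fold. Among the 22 erasers and JmjC oxygenases 7 rose and 2 fell, and among the 30 writers 6 rose and 2 fell. The split depended on the libraries kept. It shifted towards falls when control replicate 1 or either knockdown replicate was left out, and most without control replicate 1. DESeq2 called 8 higher and 3 lower, with 24.0% of all tested genes called. The calls of KMT5A, KDM7A, EZH1, KDM5B, SETD7, KDM3A and JMJD6 held under all 13 alternatives, and those of the other 10 genes were each lost under at least 1. Among the 35 genes not called, the 95% interval of the change lay within 1.5-fold for 33 (all but KDM4D and KDM8). With 2 libraries per group an exact permutation test of a single gene cannot give a p below 0.333, so the tests rest on a spread estimated across genes. These are bulk RNA values, in which a change in the share of cells that express a gene and a change in RNA per cell cannot be told apart.

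**Figure D1:**
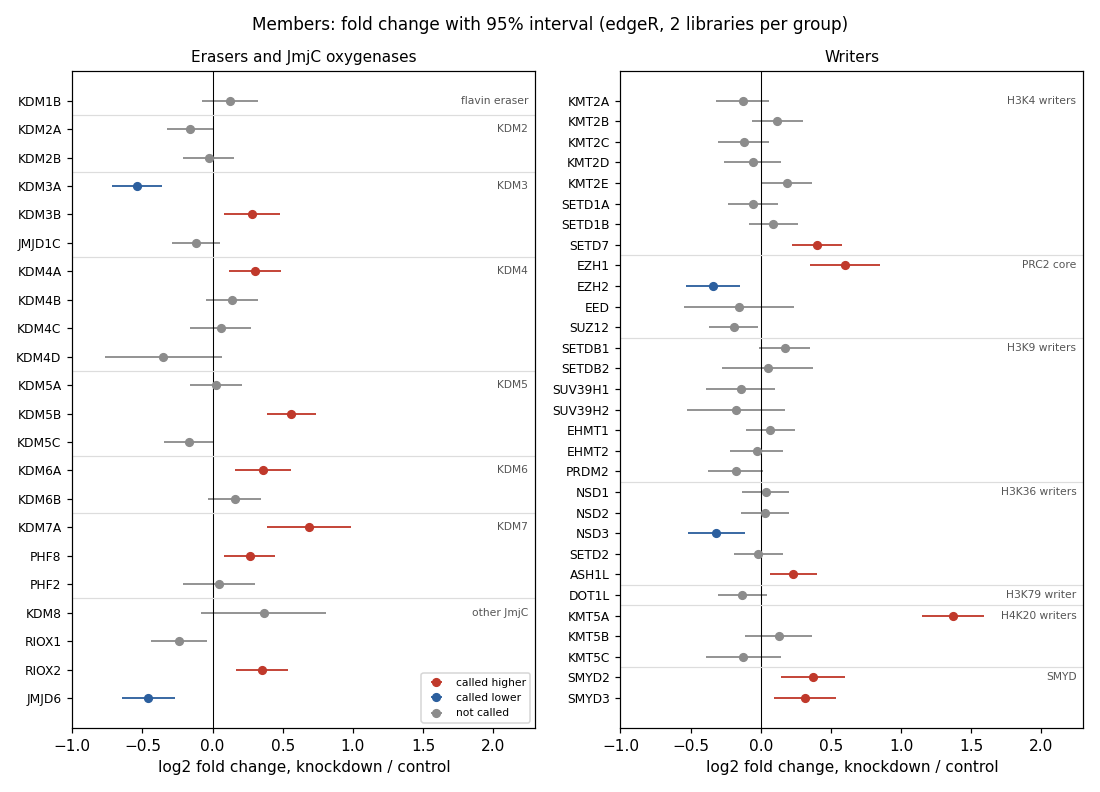
Log2 fold change (knockdown over control, horizontal axis) of each of the 52 genes, with the 95% interval from edgeR as bars and the call as colour, erasers on the left and writers on the right. KMT5A, at 1.37, lies apart from the other genes, which lie between -0.54 and 0.69.

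The largest change was that of KMT5A (NM_020382), which encodes the enzyme that places the first methyl group on H4K20. KMT5A stood at 18.7 and 18.0 CPM in the control libraries and at 45.6 and 49.2 CPM in the knockdown libraries, from 232 and 219 counts to 557 and 637. Both knockdown libraries lay more than 2-fold above both controls. The rise was 2.58-fold (18.35 ± 0.460 to 47.4 ± 2.57 CPM, SD, n = 2 each, log2 fold change 1.37, SE 0.107, edgeR adjusted p = 8.64e-12), and it ranged from 1.31 to 1.42 on the log2 scale over the alternatives. KMT5B and KMT5C, which add the second and the third methyl group to the product of KMT5A, gave log2 fold changes of 0.13 and -0.12 and were not called. Per length of transcript, the KMT5A level was 0.81 and 0.79 times that of KMT5C in the control libraries and 2.31 and 2.21 times in the knockdown libraries. Of the 50-base words of the KMT5A transcript, 22.2% also occur in other annotated transcripts, mainly those of the processed pseudogenes SETD8P1 and AC027612.3. Reads from such copies could be counted at KMT5A, and their part was not tested. The 250 bases before the RefSeq start of KMT5A (GRCh38.p14, chr12:123383882-123384131, plus strand) are shown because this gene changed most, with a match to the hypoxia response core described below in capitals.

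KMT5A: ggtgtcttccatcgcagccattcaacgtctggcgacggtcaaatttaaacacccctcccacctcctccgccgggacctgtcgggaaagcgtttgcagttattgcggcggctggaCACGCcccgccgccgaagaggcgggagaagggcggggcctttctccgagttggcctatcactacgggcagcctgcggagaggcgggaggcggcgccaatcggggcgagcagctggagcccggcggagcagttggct

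Among the erasers of H3K4, the mark that LSD1 itself removes at the mono- and dimethyl level, KDM5B rose. KDM5B, a JmjC enzyme that takes off the higher methylation states of H3K4, stood at 77.05 and 82.0 CPM in the control libraries and at 119.5 and 115.1 CPM in the knockdown libraries. The groups were clearly separate, and the rise was 1.48-fold (log2 fold change 0.56, SE 0.0851, edgeR adjusted p = 3.58e-06). Its relatives KDM5A and KDM5C were not called, at log2 fold changes of 0.02 and -0.17, and the KDM5C libraries of the groups overlapped, with 258.5 and 279.1 CPM against 219.6 and 258.7 CPM. Per length of transcript, the KDM5B level was 0.17 times that of KDM5C in both control libraries and 0.32 and 0.26 times in the knockdown libraries. KDM1B, the other flavin-dependent demethylase and the closest relative of LSD1, had 38.3 and 40.01 CPM in control and 45.1 and 40.2 CPM in knockdown libraries. Its log2 fold change was 0.12, with a 95% interval from -0.08 to 0.32 (edgeR adjusted p = 0.356), so a rise above 1.5-fold in the remaining flavin enzyme lay outside the interval.

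Of 8 writers assigned to H3K4, 1 rose and 0 fell, where 18.2% of all tested genes were called higher and 17.9% lower. SETD7, which places a single methyl group on H3K4 and on many other proteins, was the gene that rose. It went from 125.0 and 149.7 CPM to 186.2 and 177.1 CPM. All knockdown values were above all control values, a 1.32-fold rise (log2 fold change 0.40, SE 0.0870, edgeR adjusted p = 0.000424). KMT2B, KMT2E, SETD1A and SETD1B, catalytic subunits of the COMPASS family or, for KMT2E, a relative of them, changed by log2 fold changes of 0.12, 0.19, -0.05 and 0.09 and were not called.

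For KMT2A, KMT2C and KMT2D, which encode the large MLL enzymes of promoters and enhancers, the control libraries differed from each other more than the group means did. KMT2D stood at 467.0 and 624.2 CPM in the control libraries and at 488.1 and 560.3 CPM in the knockdown libraries, so both knockdown values lay between the controls. KMT2A stood at 232.1 and 301.1 CPM in control and at 241.5 and 245.8 CPM in knockdown libraries, and KMT2C at 146.2 and 181.8 CPM against 149.1 and 152.6 CPM. Their log2 fold changes were -0.06, -0.13 and -0.12, and none was called. Without control replicate 1 all 3 were called lower, and without control replicate 2 all 3 had positive values, up to 0.17 for KMT2D. The 3 transcripts, of 16628 to 19419 nt, are the longest of the set. Over all tested genes, control replicate 2 exceeded control replicate 1 by a median log2 ratio of 0.15 for the 221 transcripts over 12000 nt and by -0.02 for those under 2000 nt, whereas the ratio between the knockdown replicates was 0.02 and -0.01. The part of this length pattern in the KMT2 values was not tested. Of the 50-base words of the KMT2A and KMT2C transcripts, 21.5% and 6.98% also occur in other annotated transcripts. For KMT2A these belong to AP001267.5, which shares 3654 of 16628 exon bases with it on the same strand. The part of such reads was not tested either.

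**Figure D2:**
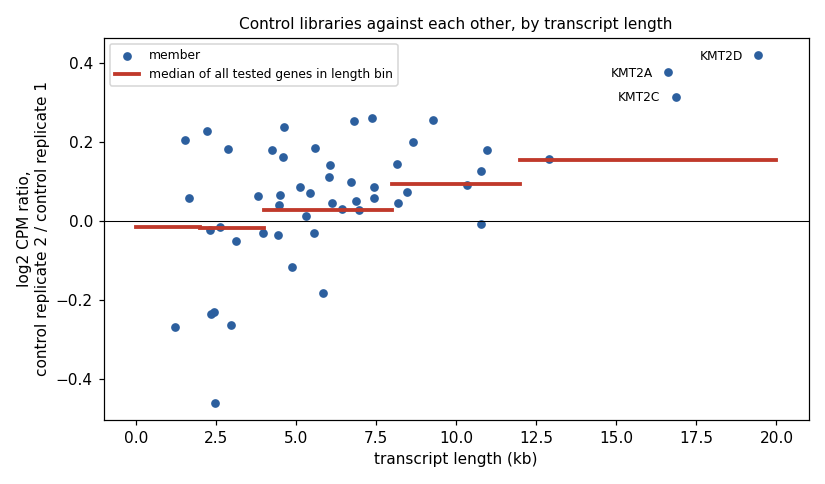
Log2 ratio of CPM between control replicate 2 and control replicate 1 (vertical axis) against transcript length in kb (horizontal axis) for each of the genes with a matched length (points), with the median of all tested genes in each length bin (bars). KMT2A, KMT2C and KMT2D lie at the top right, at ratios of 1.30, 1.24 and 1.34 on the linear scale.

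Other subunits of the H3K4 complexes, shared or particular to some of them, held 2 genes that rose and 5 that fell of 14. Their median log2 fold change was -0.07. DPY30, a core subunit needed for full activity, fell 1.49-fold (log2 fold change -0.57, edgeR adjusted p = 0.000179). PAGR1, a subunit of the KMT2C and KMT2D complexes whose exons overlap those of other annotated genes on the same strand, fell 1.27-fold, while NCOA6, a coactivator in the same complexes, rose 1.29-fold. WDR82, which ties SETD1A and SETD1B to RNA polymerase II, rose 1.28-fold. The core scaffold genes WDR5, RBBP5 and ASH2L gave log2 fold changes of -0.05, 0.10 and -0.19 and were not called.

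Among the erasers of H3K9, KDM3A fell and its relative KDM3B rose. KDM3A, a demethylase of mono- and dimethyl H3K9 known as a target of hypoxia-inducible factors, stood at 108.0 and 99.8 CPM in control and at 74.4 and 68.5 CPM in knockdown libraries. The groups did not overlap, and the fall was 1.45-fold (log2 fold change -0.54, SE 0.0877, edgeR adjusted p = 1e-05). KDM3B, with the same substrates, went from 43.0 and 51.2 CPM to 58.0 and 56.4 CPM (log2 fold change 0.28, edgeR adjusted p = 0.022). That call was lost without control replicate 1, at a log2 fold change of 0.16 (edgeR adjusted p = 0.371), and with DESeq2 (adjusted p = 0.102). Per length of transcript, KDM3A exceeded KDM3B 3.50-fold and 2.72-fold in the control libraries and 1.79-fold and 1.69-fold in the knockdown libraries, so the ratio was lower in both knockdown libraries. JMJD1C, a relative of both, was the most abundant of the 51 genes with a matched length, at 56.3 CPM per kb in control cells and 51.9 in knockdown cells, and was not called.

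Genes of the hypoxia response moved with KDM3A: 9 of 12 fell, 0 rose, and their median log2 fold change was -0.56. BNIP3, a mitophagy receptor, stood at 96.7 and 110.7 CPM in control and at 39.4 and 34.1 CPM in knockdown libraries, and CA9, which regulates pH, at 23.0 and 19.6 against 7.12 and 5.95 CPM. VEGFA, a growth factor gene of the same response, was not called, at -0.01. KDM4B and KDM4C, also described as hypoxia targets, gave log2 fold changes of 0.14 and 0.06 and were not called. The part of the hypoxia response in the KDM3A value was not tested.

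Of the 4 KDM4 genes, whose enzymes demethylate trimethyl H3K9 and H3K36, KDM4A rose from 62.0 and 63.7 CPM to 73.6 and 81.4 CPM (log2 fold change 0.30, SE 0.0896, edgeR adjusted p = 0.00798). The call was lost without control replicate 1 and without knockdown replicate 2, at log2 fold changes of 0.28 and 0.23. GENCODE places the exons of another annotated gene, AL451062.3, over 2077 of the 4474 exon bases of KDM4A on the same strand, so reads there cannot be told apart. KDM4D, a low-abundance member of the family, had 54 to 81 counts per library and a log2 fold change of -0.35 with a wide interval, from -0.77 to 0.07.

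All 7 H3K9 writers stayed below the threshold, as did most tested genes, of which 36.1% were called. SETDB1, which silences endogenous retroviruses, had a log2 fold change of 0.17, with 56.9 and 55.6 CPM against 63.4 and 63.1 CPM, and its exons overlap the more abundant CERS2 on the opposite strand over 390 nt. EHMT1 and EHMT2, partners that dimethylate H3K9 in gene-rich chromatin, gave 0.07 and -0.03. SUV39H1 and SUV39H2, which trimethylate H3K9 in heterochromatin, gave -0.14 and -0.18, the latter with knockdown libraries as far apart as 14.0 and 8.42 CPM. SETDB2 gave 0.05 and PRDM2 gave -0.18. Among 12 partners and readers of H3K9 methylation, 0 rose and 2 fell. CBX1, one of the HP1 proteins that bind methylated H3K9, fell from 193.5 and 213.5 CPM to 136.4 and 127.3 CPM (log2 fold change -0.63, edgeR adjusted p = 4.08e-07), whereas the other HP1 genes CBX3 and CBX5 gave -0.17 and 0.16 and were not called. UHRF1, a reader of methylated H3K9 that maintains DNA methylation in S phase, fell from 66.4 and 65.0 CPM to 41.8 and 45.7 CPM (log2 fold change -0.59, edgeR adjusted p = 6.8e-06).

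In the PRC2 core, which methylates H3K27, the alternative catalytic subunits moved in opposite directions. EZH1 stood at 15.8 and 18.6 CPM in the control libraries and at 24.4 and 27.7 CPM in the knockdown libraries, a 1.52-fold rise (log2 fold change 0.60, SE 0.123, edgeR adjusted p = 0.000226). EZH2, the subunit of dividing cells, stood at 48.8 and 48.3 CPM in control and at 39.9 and 36.9 CPM in knockdown libraries, a 1.27-fold fall (log2 fold change -0.34, SE 0.0958, edgeR adjusted p = 0.00539). Neither gene's groups overlapped, as was also so for 67.2% of all tested genes. The EZH2 call was lost without knockdown replicate 2, at a log2 fold change of -0.28 (edgeR adjusted p = 0.0576). Per length of transcript, EZH1 stood at 0.18 and 0.22 times the level of EZH2 in the control libraries and at 0.35 and 0.43 times in the knockdown libraries, so EZH2 remained the more abundant of the pair. The other core subunits SUZ12 and EED gave log2 fold changes of -0.19 and -0.15 and were not called. EED rests on 70 to 87 counts per library, and 9.68% of the 50-base words of SUZ12 also occur in its pseudogene SUZ12P1.

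The upstream sequences of the pair that moved in opposite directions and of KDM3A follow, from RefSeq on GRCh38.p14: EZH1 at chr17:42745041-42745290 (minus strand), EZH2 at chr7:148884292-148884541 (minus strand) and KDM3A at chr2:86441121-86441370 (plus strand). Each line gives the 250 bases before the start, 5′ to 3′ on the strand of the gene, with motif matches in capitals.
EZH1: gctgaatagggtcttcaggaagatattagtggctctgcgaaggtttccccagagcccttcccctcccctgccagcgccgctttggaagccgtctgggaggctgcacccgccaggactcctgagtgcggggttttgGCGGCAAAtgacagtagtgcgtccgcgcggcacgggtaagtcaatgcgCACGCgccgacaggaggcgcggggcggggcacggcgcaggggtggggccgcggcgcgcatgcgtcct
EZH2: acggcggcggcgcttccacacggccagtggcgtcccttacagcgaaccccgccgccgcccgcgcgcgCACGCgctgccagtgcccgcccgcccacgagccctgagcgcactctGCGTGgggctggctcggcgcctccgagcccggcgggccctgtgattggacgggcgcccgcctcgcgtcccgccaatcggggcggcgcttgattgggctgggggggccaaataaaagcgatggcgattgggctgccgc
KDM3A: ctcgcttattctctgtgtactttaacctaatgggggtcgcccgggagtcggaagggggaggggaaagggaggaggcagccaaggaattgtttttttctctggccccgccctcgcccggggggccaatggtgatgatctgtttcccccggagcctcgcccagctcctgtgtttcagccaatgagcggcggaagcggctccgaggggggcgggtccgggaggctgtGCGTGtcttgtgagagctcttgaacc

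The table of upstream sequences held 46 of the 52 genes. The hypoxia response core, searched as ACGTG or GCGTG on both strands (matches to the strands of 1 site can overlap), was present in 34 of these 46 windows, or 73.9%, against 57.5% of the windows of tested genes and 43.1% of all windows of this length. By call, the core was present in 9 of 12 windows of genes called higher, 2 of 2 called lower and 23 of 32 not called. It was thus about as common in genes not called (71.9%) as in those called higher (75%). KDM3A and KMT5A held 1 match each. E2F sites, searched as TTTCCCGC, TTTGGCGC, TTTGCCGC or TTTCGCGC on both strands, were present in 4 of 46, those of EZH1, KDM1B, NSD2 and SUZ12, against 4.46% of windows of tested genes. Of these 4 genes EZH1 was called, and the window of EZH2 held no match. A motif match is a description of these letters only.

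For both erasers of H3K27 the knockdown libraries lay above the controls, and 1 of the pair was called. The groups did not overlap for 67.2% of all tested genes either. KDM6A, an X-linked demethylase that sits in the KMT2C and KMT2D complexes, stood at 32.4 and 34.0 CPM in control and at 42.8 and 42.3 CPM in knockdown libraries (log2 fold change 0.36, SE 0.0986, edgeR adjusted p = 0.00445). Without control replicate 1 its call was lost, at a log2 fold change of 0.32 (edgeR adjusted p = 0.0525). KDM6B, the signal-induced relative, stood at 50.1 and 53.6 CPM against 55.2 and 60.4 CPM and was not called (log2 fold change 0.16, edgeR adjusted p = 0.194). Of 9 accessory PRC2 genes tested, 2 rose and 3 fell. RBBP4, a histone chaperone subunit shared with other complexes, fell 1.27-fold, and its exons overlap those of SYNC on the opposite strand over 1706 nt. LCOR, whose locus also encodes a PRC2 subunit, fell 1.34-fold, and PHF19, which recruits PRC2 to H3K36-methylated sites, fell by 0.32 on the log2 scale, while EPOP, which tunes PRC2 activity, rose 1.21-fold. Proliferation genes, with which EZH2 is commonly expressed, held 9 that fell and 0 that rose of 12, with a median log2 fold change of -0.64. MKI67, the proliferation antigen gene, stood at 209.1 and 234.9 CPM in control and at 141.1 and 144.2 CPM in knockdown libraries, while CDK1 and E2F1 were not called, at 0.03 and -0.10. The part of proliferation in the EZH2 value was not tested.

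Of 5 writers assigned to H3K36, 1 rose and 1 fell, and of the 2 KDM2 erasers neither was called. The KDM4 enzymes, described above, also act on H3K36. NSD1 and NSD2, which dimethylate H3K36, had log2 fold changes of 0.03 each, with 95% intervals between -0.14 and 0.20. SETD2, the enzyme of trimethyl H3K36 in gene bodies, had 117.1 and 129.4 CPM against 127.0 and 116.5 CPM, overlapping groups at a log2 fold change of -0.02. NSD3, the remaining member of the NSD family, fell from 38.5 and 42.0 CPM to 32.3 CPM in both knockdown libraries (log2 fold change -0.32, SE 0.101, edgeR adjusted p = 0.0135). Its call was lost without control replicate 2, at -0.25, and with DESeq2 (adjusted p = 0.0775). ASH1L, which dimethylates H3K36 near promoters, rose from 171.2 and 193.7 CPM to 213.5 and 215.0 CPM (log2 fold change 0.23, edgeR adjusted p = 0.0269). This was the least stable of the calls, lost under 6 alternatives, with a log2 fold change of 0.14 without control replicate 1. The H3K36 demethylase genes KDM2A and KDM2B were not called, at -0.16 and -0.03.

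DOT1L, the enzyme of H3K79, had 174.4 and 181.4 CPM in control and 147.5 and 177.3 CPM in knockdown libraries, overlapping groups at a log2 fold change of -0.13. Among 6 genes of its elongation-linked partners 2 rose, MLLT1 by 0.32 and MLLT6 by 0.29 on the log2 scale, and 0 fell. MLLT1 encodes a reader of acylated histones and MLLT6 a partner of DOT1L.

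Among the PHD-JmjC demethylases, which bind trimethyl H3K4 with a PHD finger and erase nearby repressive marks, KDM7A and PHF8 rose. KDM7A was the scarcest of the 51 genes per length, at 1.03 CPM per kb in control cells. It stood at 8.70 and 10.37 CPM in control and at 16.1 and 14.6 CPM in knockdown libraries, the second-largest fold change of the set (1.61-fold, log2 fold change 0.69, SE 0.148, edgeR adjusted p = 0.000396). PHF8, also an eraser of monomethyl H4K20, the product of KMT5A, went from 66.02 and 72.9 CPM to 81.4 and 85.4 CPM (log2 fold change 0.26, edgeR adjusted p = 0.0186). The PHF8 call was lost with DESeq2, without control replicate 1 and without knockdown replicate 2, at log2 fold changes of 0.26, 0.19 and 0.23. PHF2 had a log2 fold change of 0.04, with knockdown libraries at 18.7 and 24.0 CPM on either side of the controls.

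The JmjC oxygenases with reported hydroxylase activity moved both ways. JMJD6, a lysyl hydroxylase of splicing factors that has also been described as an arginine demethylase, stood at 70.2 and 70.8 CPM in control and at 48.4 and 54.3 CPM in knockdown libraries, a 1.37-fold fall (log2 fold change -0.46, SE 0.0918, edgeR adjusted p = 0.000183). RIOX1 and RIOX2, which hydroxylate ribosomal proteins, differed in their calls. RIOX2 went from 77.45 and 65.9 CPM to 93.7 and 89.0 CPM (log2 fold change 0.35, edgeR adjusted p = 0.00274), a call lost without control replicate 2 at 0.24, and its exons overlap CRYBG3 on the opposite strand over 1898 nt. RIOX1 had 58.3 and 49.7 CPM against 44.7 and 46.8 CPM and narrowly missed the threshold (log2 fold change -0.24, edgeR adjusted p = 0.0531). It was called lower with the size factors of DESeq2 and with the replicate number as a block. In the test over all RefSeq rows, described below, RIOX1 was called lower too (edgeR adjusted p = 0.0392). KDM8, at 42 to 68 counts per library, had a log2 fold change of 0.36 and an interval from -0.08 to 0.81.

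Both SMYD methyltransferases among the 52 genes rose, whose enzymes have many substrates outside histones. SMYD2 stood at 22.1 and 23.05 CPM in control and at 31.0 and 27.6 CPM in knockdown libraries (log2 fold change 0.37, SE 0.113, edgeR adjusted p = 0.00895). SMYD3 stood at 26.6 and 30.7 CPM against 33.8 and 37.5 CPM (log2 fold change 0.32, edgeR adjusted p = 0.0209). In both genes all knockdown values lay above all control values, where groups without overlap were found for 67.2% of all tested genes. Neither call was kept with DESeq2 (adjusted p = 0.0695 and 0.116) or without control replicate 1, where the log2 fold changes were 0.34 and 0.21.

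**Figure D3:**
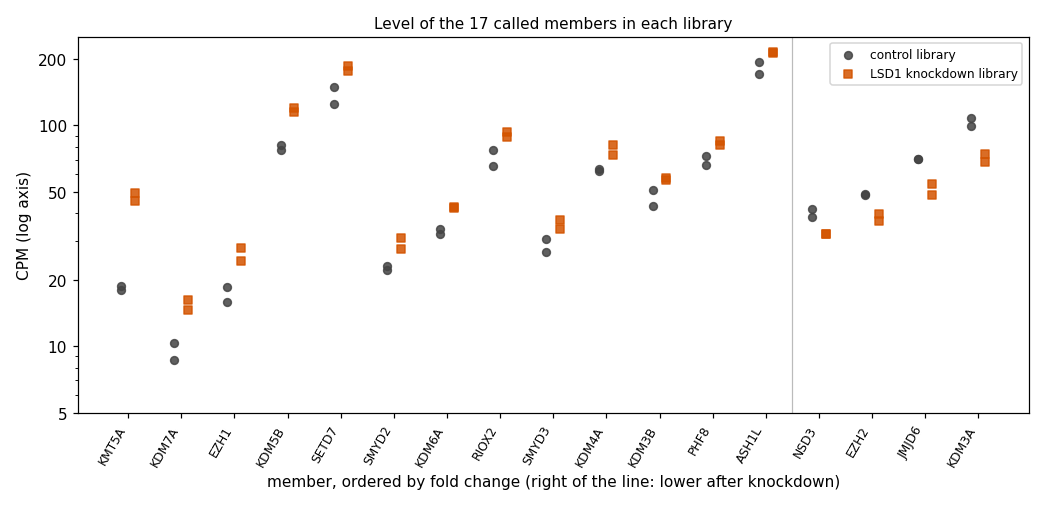
Level in CPM (vertical log axis) of each called gene in each of the 4 libraries, controls as grey circles and knockdowns as orange squares, ordered by fold change. In all 17 genes, shown because they were called, the groups do not overlap, as was also so for 67.2% of all tested genes. The gap between the groups is widest for KMT5A.

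Per length of transcript, control levels spanned from 1.03 CPM per kb for KDM7A to 56.3 for JMJD1C. After JMJD1C, the highest levels were those of KDM5C at 44.6, NSD2 at 32.7, RIOX2 at 30.6 and KMT2D at 28.1 CPM per kb. After KDM7A, the lowest were those of SETDB2 at 1.55, KDM8 at 1.67, KDM4D at 2.01 and EED at 2.99 CPM per kb. On the same scale KDM1A stood at 77.3 CPM per kb in control cells, above each of these 51 genes, and at 5.87 after knockdown. KMT5A moved from 5.85 to 15.1 CPM per kb.

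The tables list several RefSeq rows, one per annotated transcript, for 23 of the 52 genes, and rows of a gene count shared reads again. In a test over all rows, with 37.3% of 24163 rows called, the rows of 22 of these 23 genes had the same call throughout. The 5 rows of EZH2 gave log2 fold changes between -0.37 and -0.35. The exception was PHF8, with 2 of 4 rows called higher and values between 0.13 and 0.27. The widest spread, 0.53, was that of PRDM2, a tumour suppressor methyltransferase gene, where 3 rows lay between -0.19 and -0.16 and a row with 22 to 43 counts per library at -0.69 (edgeR adjusted p = 0.0613). Both rows of SMYD3 rose, by 0.31 and 0.48.

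An earlier analysis of these data found that transcripts holding the 7-mer TACTTCG, its neighbour ACTTCGA, the 7-mer GCGTACA or its neighbour CGCGTAC tended to rise, and these words were picked with the fold changes known. The shares that follow come from the same data and are no independent test. Called higher were 31.4% of the 2048 genes whose transcript holds one of these words, against 15.8% of the 10770 without. Of the 51 genes with a matched transcript 15 hold one, of which 7 rose (ASH1L, EZH1, KDM4A, KDM5B, KDM7A, SETD7 and SMYD3) and 1 fell (EZH2). Of the 36 without, 6 rose and 3 fell, and KMT5A is among the 6. Transcripts with a 7-mer were also longer, with a median of 6713 nt against 5371 nt among the 51 genes. Over all genes the medians were 4076 nt and 2806 nt. The search also covered the 7-mers CTAGAAG and TAGAAGA, which are left out of the counts above. Among the genes that rose, KMT5A, KDM3B, EZH1 and SMYD3 hold TAGAAGA, KDM6A holds CTAGAAG, and KDM4A, KDM5B and KDM7A hold both. The other genes that rose hold neither. Among the genes that fell, JMJD6 holds TAGAAGA, NSD3 holds CTAGAAG, and KDM3A and EZH2 hold neither. Uncalled genes hold them too, such as KDM2A with TAGAAGA and KDM1B with CTAGAAG. The part of any of these matches in any value was not tested.

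Other enzymes of the same chemistry, outside the 52 genes, changed as follows. Of 14 further SET and PR domain genes tested, 4 rose and 3 fell. SMYD5, another SMYD methyltransferase gene, went from 27.3 and 30.6 CPM to 63.6 and 66.4 CPM (log2 fold change 1.17, edgeR adjusted p = 3.89e-11), and PRDM8, a PR domain repressor of neural development, rose 1.83-fold. SMYD5 and PRDM8 both hold TACTTCG, as do PRDM1, PRDM10 and SETD5 of the same list. The latter genes were not called, at log2 fold changes of -0.71, 0.005 and 0.07. SMYD4, a further member of the SMYD family, fell by 0.32 on the log2 scale (edgeR adjusted p = 0.0238). Of 8 further JmjC genes tested 2 rose and 2 fell, among them HR, a hair follicle corepressor with H3K9 demethylase activity, which fell 1.83-fold. Of 9 tested genes for arginine methyltransferases, counted with the partner gene WDR77, 1 rose. This was PRMT1, the main asymmetric enzyme, by 0.36 on the log2 scale. Of 16 tested genes for the methyl donor and for 2-oxoglutarate, 5 rose and 1 fell. AHCYL2, a relative of the enzyme that clears S-adenosylhomocysteine, rose 1.79-fold, MAT2B, the regulatory subunit of S-adenosylmethionine synthesis, rose 1.70-fold and OGDH, which consumes 2-oxoglutarate, rose 1.47-fold. The catalytic subunit gene MAT2A was not called, at 0.08.

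In the LSD1 complex itself, 2 of 10 genes rose and 1, KDM1A, fell. PHF21A, which reads unmethylated H3K4 in that complex, rose 1.31-fold (log2 fold change 0.39, edgeR adjusted p = 0.00261), and RCOR2, a CoREST scaffold, rose from 8 counts in each control library to 14 and 27.

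**Figure D4:**
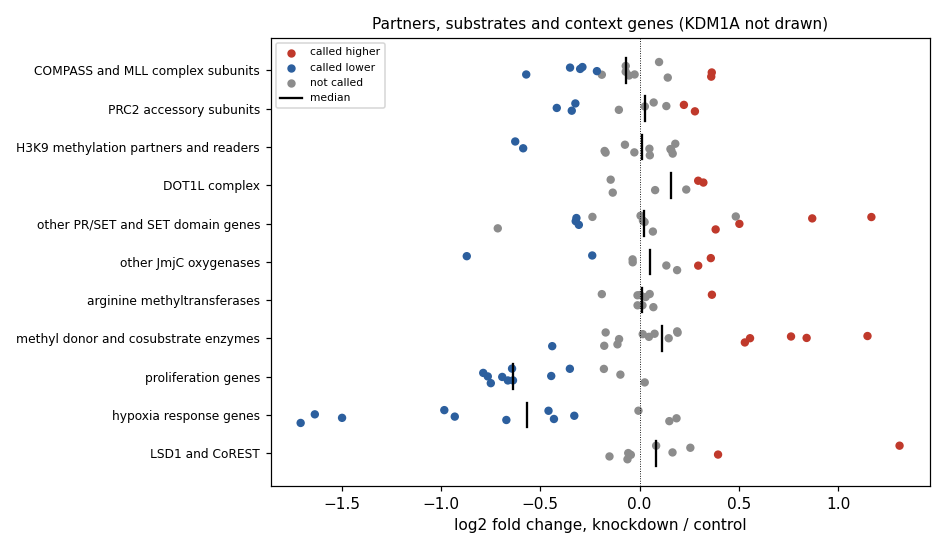
Log2 fold change (knockdown over control, horizontal axis) of each tested gene in the partner and context lists, coloured by call, with the median of each list as a bar and KDM1A left out. Most points of the proliferation and hypoxia lists lie left of 0, whereas the other lists hold called genes on both sides or few called genes.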

How the data were processed

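Expression was measured by RNA sequencing in PC-3M-luc cells with control or LSD1 RNAi, 2 libraries each. The authors deposited whole-number read counts per RefSeq transcript, a unit judged from the values. TopHat2, HOMER, edgeR, DESeq 1.8.3 and hg19 appear, without a role, per the submitters' processing notes. For strand and counting options, nothing was stated in the labels. Of 38767 rows, 37201 were named from a RefSeq gene table and 476 from GENCODE 29. The 1090 unmatched rows, 1.38% to 1.40% of counts, were left out. The row with the highest mean count stood for each symbol.

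Counts were TMM-normalized, filtered with filterByExpr (count 10, total 15) and tested in R 4.3.3 by edgeR 4.0.16 (glmQLFTest, group as single factor, p-values adjusted over all tested genes after Benjamini and Hochberg). The biological coefficient of variation was 5.96%. The procedure was tested on simulated data. Lengths and exon overlaps came from GENCODE 29 (GRCh38), not from hg19. The members, lists and tests were chosen with earlier results of these data known. Named were every member, KDM1A and up to 4 called genes per context list with the smallest adjusted p; other named genes were chosen after their values were seen. Not every gene picked this way is reported here. Alternatives were other scalings and filters, DESeq2 1.42.0, limma-voom 3.58.1, the replicate number as a block, summed rows, unmatched rows kept, and leaving out each library.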

Additional observations from a re-analysis of the deposited data

How the results depend on the processing

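The 13 rises and 4 falls among the writers and erasers became 8 and 3 with DESeq2, and leaving out 1 library gave 6 to 12 rises and 4 to 7 falls. Over all genes, 2412 rises became 1564 with DESeq2. Of the 17 calls 7 held under all 13 alternatives and 10 were lost under at least 1, and 9 of 35 uncalled genes were called under at least 1. With no normalization factor, which moved the median of all genes by less than 0.1, the uncalled KDM2B, EHMT2 and SETD2 turned to 0.0061, 0.0052 and 0.017. Leaving out 1 library turned the sign of 15 uncalled genes, whose log2 fold changes then ran from -0.11 to 0.053 for KDM2B, -0.12 to 0.26 for KDM4C, -0.013 to 0.055 for KDM5A, -0.15 to 0.20 for PHF2, -0.31 to 0.069 for KMT2A, -0.27 to 0.044 for KMT2C, -0.25 to 0.17 for KMT2D, -0.15 to 0.029 for SETD1A, -0.048 to 0.13 for SETDB2, -0.59 to 0.15 for SUV39H2, -0.024 to 0.15 for EHMT1, -0.19 to 0.11 for EHMT2, -0.044 to 0.11 for NSD1, -0.056 to 0.12 for NSD2 and -0.091 to 0.054 for SETD2. The causes were not tested. Same-numbered libraries share only a number (correlation of deviations 0.07), and with the replicate block 13 of the genes rose and 5 fell, with 2634 rises and 2637 falls over all genes. With 2 libraries per group the spread is shared across genes, and genes under 100 counts per library (EED, KDM4D, KDM8) have wide intervals.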
